A study of Homo sapiens with 16 samples.

Results

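The GADD45 genes are GADD45A, GADD45B and GADD45G, and this account covers the CUT&Tag signal at and around them in HEK293 cells under vehicle and under sorbitol. The deposited table counts reads over 1 shared set of 74404 peak intervals, and an interval was taken as a member when it overlapped 1 of the 3 genes or lay within 10 kb of an annotated transcript start (GENCODE release 44, hg38). That gave 10 of the 74404 intervals: 1 at GADD45A, 5 at GADD45B and 4 at GADD45G. The family was singled out with the response of GADD45B in all 4 targets already known. For this reason every GADD45B value is a description, given with its error and without a test, while GADD45A and GADD45G are tested. The member nearest to the 10 kb limit lay 6578 bp from the GADD45G start, and the nearest interval left out lay 10777 bp from it, with CTCF counts of 80 and 64 in vehicle and 29 and 19 in sorbitol.

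HEK293 is a human embryonic kidney cell line, and all 16 libraries came from HEK293 cells of the eGFP-YAP genotype. Each of 4 targets (CTCF, RAD21, H3K27ac and eGFP-YAP) had 2 libraries from control cells, called vehicle here, and 2 from cells kept in 200 mM sorbitol, a hyperosmotic stress, for 1 h. The labels of the controls name a vehicle, the treatment protocol calls the controls untreated, and the column names give them 0 h. The design text adds a serum starvation of 1 h before sorbitol and does not say whether the CUT&Tag controls were starved for as long as the sorbitol cells were without serum. Time and serum may therefore differ along with sorbitol in every contrast below, and cannot be told apart from it. How the eGFP-YAP allele was made, and whether the line is a single clone, is not given in the sources used here, and neither is whether replicates came from separate cultures. The p-values below therefore measure only the spread between these libraries, which may be technical. CUT&Tag uses an antibody to bring a Tn5 transposase to its target on intact nuclei, so that nearby DNA is cut and tagged. The libraries made with the GFP antibody are called YAP1 here. A control library, made with an antibody that binds nothing specific, was not analysed here, so a count includes any cutting that does not depend on the antibody.

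GADD45 proteins are small acidic nuclear proteins without known enzymatic activity that are induced by many stresses. They bind and activate the kinase MAP3K4, which lies upstream of the p38 and JNK kinases, and they also bind PCNA, p21 and the CDK1 and cyclin B1 complex and take part in DNA repair and active DNA demethylation. GADD45A is a classical p53 target, GADD45B is induced by NF-kappaB and TGF-beta signalling, and GADD45G was described as a cytokine-induced member. CTCF is a zinc-finger protein that binds a long DNA motif and halts cohesin, RAD21 is a cohesin subunit, YAP1 is a coactivator that reaches DNA mainly through TEAD factors, and H3K27ac is a histone mark of active promoters and enhancers.

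Of the 10 member intervals, 2 held a match to the CTCF consensus with at most 1 mismatch on either strand, and these were the intervals just upstream of GADD45B and of GADD45G. Both sites are shown because the CTCF signal of their intervals behaved unlike that over the neighbouring gene; the 14 capitals mark the match, and both lie on the plus strand of hg38. The GADD45B site, at chr19:2474705-2474734 as shown, had no mismatch, and the GADD45G site, at chr9:89603900-89603929, had 1. Such a match was present in 18.4% of all 74404 intervals, in 28.8% of intervals of about the width of the GADD45B one and in 13.0% of those of about the width of the GADD45G one.
GADD45B upstream site: cggcgcggCCACCAGATGGCGCcaccgcgc
GADD45G upstream site: ttaacctgCCTGCAGATGGCGCcccgggaa

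The promoters of GADD45B and GADD45G are shown next, because intervals over their starts gained signal of some targets and because they share motifs in like positions. RefSeq promoters (GRCh38.p14) were matched for 2 of the 3 genes. The runs are chr19:2475877-2476121 and chr9:89604762-89605011, both on the plus strand and both ending before the first annotated transcript start. Capitals mark the motifs found.
GADD45B promoter: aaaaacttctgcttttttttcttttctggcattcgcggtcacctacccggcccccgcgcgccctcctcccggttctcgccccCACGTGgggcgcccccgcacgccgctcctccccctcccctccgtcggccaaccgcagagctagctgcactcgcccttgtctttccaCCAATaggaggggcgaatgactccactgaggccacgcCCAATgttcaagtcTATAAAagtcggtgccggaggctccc
GADD45G promoter: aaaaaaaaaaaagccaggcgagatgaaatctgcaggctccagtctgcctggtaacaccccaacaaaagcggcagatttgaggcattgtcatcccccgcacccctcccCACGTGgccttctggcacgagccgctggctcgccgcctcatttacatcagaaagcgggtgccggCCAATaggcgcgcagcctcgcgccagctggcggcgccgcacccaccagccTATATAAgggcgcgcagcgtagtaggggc

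The search covered the 250 bases before each RefSeq start on both strands, with positions counted back from the start and given for the first base of a match. The E-box CACGTG began at position -168 in GADD45B and at -143 in GADD45G, and 6.3% of the 35116 promoters held it. The CCAAT box began at -82 and -45 in GADD45B and at -79 in GADD45G (32.0% of promoters). A TATA box stood at -31 in GADD45B as TATAAA (10.7% of promoters) and at -29 in GADD45G as TATATAA (2.4%). The letters GGGCGG (GC box, in 42.6% of promoters), TGACGTCA (CRE, 1.6%), TGANTCA (AP-1, 6.6%) and GGAATG (TEAD, 11.9%) were in neither window. The CACGTG and TGACGTCA motifs read the same on both strands, and no searched match overlapped another in these windows.

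The libraries held between 1187939 counts (RAD21 vehicle replicate 2) and 8842656 counts (H3K27ac sorbitol replicate 1) over all intervals, and RAD21 was the shallowest target. Values are given as counts and as counts per 1000000 (CPM) after TMM scaling, which sets most intervals to no change. Scaling to the total count instead moved the median log2 fold change of all tested intervals from -0.06 to -1.04 in CTCF, from -0.01 to -0.60 in RAD21, from -0.04 to -1.46 in YAP1 and from 0.02 to 0.17 in H3K27ac. Changes below are relative to the TMM median, and values that flip under the total count are given beside the main ones. A log2 fold change is sorbitol minus vehicle with its standard error, n = 2 against 2 libraries throughout. A call is an adjusted p under 0.05 (edgeR quasi-likelihood test, two-sided, Benjamini-Hochberg over all tested intervals of a target).

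GADD45B lies on chr19 from 2476122 to 2478259 on the plus strand (ENSG00000099860, 2138 bp), and its transcripts start between 2476122 and 2476356. The 5 intervals are, in order, an intergenic one at chr19:2474441-2475234 that ends 888 bp before the first start (upstream interval, with the CTCF match), one over the first starts at chr19:2475896-2476140 (promoter interval), one over the gene at chr19:2476257-2477466 that holds the last start, UTR and coding sequence (gene interval), one in UTR at chr19:2477856-2478055 (3′ interval), and an intergenic one at chr19:2479311-2479529, 1052 bp past the gene end (downstream interval). In sorbitol the gene interval held many times more CTCF, RAD21 and YAP1 signal than in vehicle, and less H3K27ac. Signal in the former targets reached past the gene end, where vehicle libraries held almost none, while the upstream interval with the CTCF match changed little beside it. In vehicle the gene interval stood near the middle of the 25162 promoter intervals (those within 1 kb of a start), and in sorbitol it was among the highest of them in CTCF, RAD21 and YAP1.

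YAP1 counts in the gene interval were 41 and 35 in vehicle and 339 and 191 in sorbitol. The mean was 6.78 ± 0.184 CPM in vehicle and 181.8 ± 28.5 CPM in sorbitol (SD, n = 2). Both sorbitol libraries were far above both vehicle libraries, although they held fewer counts in all. The log2 fold change was 4.75 ± 0.23, the 8th highest of 22765 tested intervals, and it was 3.33 under total-count scaling. Per kb the level went from the 50.9 percentile of promoter intervals in vehicle to the 99.8 percentile in sorbitol.

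CTCF counts in the gene interval were 45 and 33 in vehicle and 499 and 573 in sorbitol. The mean was 7.39 ± 0.581 CPM in vehicle and 269.7 ± 16.2 CPM in sorbitol, with both sorbitol libraries above 250 CPM. This was a log2 fold change of 5.20 ± 0.16 (4.21 under the total count), ranked 143 of 39261 from the highest. The interval held no CTCF consensus match, and its percentile per kb went from 51.1 to 99.7.

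RAD21 counts there were 34 and 10 in vehicle and 201 and 204 in sorbitol. Means were 10.6 ± 2.52 CPM in vehicle and 214.9 ± 23.7 CPM in sorbitol, again without overlap of the groups. The log2 fold change was 4.27 ± 0.32 (3.65 under the total count), ranked 32 of 17011, and the percentile went from 58.2 to 99.7.

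H3K27ac in the same interval went the other way, with counts of 177 and 166 in vehicle and 72 and 47 in sorbitol. The level was 27.8 ± 0.983 CPM in vehicle and 6.81 ± 1.37 CPM in sorbitol, so that both sorbitol libraries lay below both vehicle libraries despite their larger totals. The log2 fold change was -2.02 ± 0.19, ranked 203 of 56601 from the lowest. The percentile per kb went from 47.6 to 12.9, while the median promoter interval went from 24.6 to 20.1 CPM per kb.

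**Figure D1:**
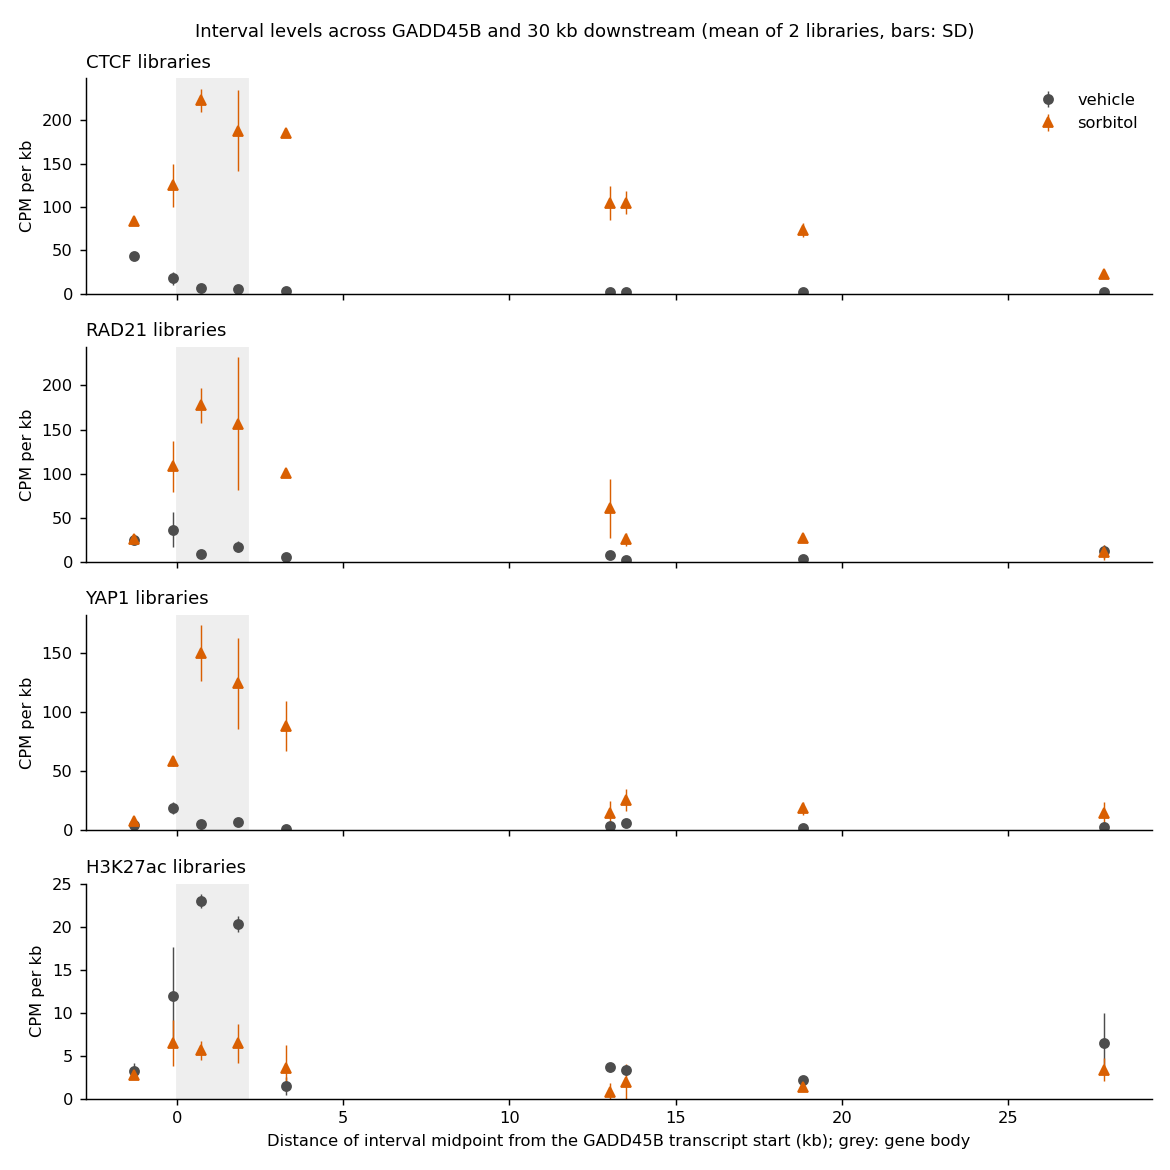
Level in CPM per kb (linear axis, mean of 2 libraries, bars are SD) against the distance of the interval midpoint from the GADD45B transcript start in kb, for the 5 member intervals and the 4 next intervals downstream, with vehicle as circles, sorbitol as triangles and the gene body in grey. In CTCF, RAD21 and YAP1 the sorbitol means stand above the vehicle means from the promoter interval to the downstream interval, and in H3K27ac they stand below over the gene and 3′ intervals.

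The smaller intervals on either side of the gene interval followed it in part. In the promoter interval, CTCF counts were 36 and 13 in vehicle and 51 and 71 in sorbitol, a log2 fold change of 2.76 ± 0.32. RAD21 there held 15 and 14 counts in vehicle and 32 and 19 in sorbitol (1.69 ± 0.51). Without RAD21 vehicle replicate 1 this value was 1.11, and without vehicle replicate 2 it was 2.39. YAP1 held 23 and 28 in vehicle and 23 and 18 in sorbitol. The YAP1 counts themselves were not higher in sorbitol. The log2 fold change of 1.64 ± 0.43 therefore rests on the scaling, and it was 0.22 under the total count. H3K27ac in the promoter interval overlapped between the groups, with 12 and 24 counts in vehicle and 19 and 9 in sorbitol (-0.86 ± 0.50, or -0.28 without H3K27ac vehicle replicate 2).

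The 3′ interval followed the gene interval in all 4 targets. CTCF counts were 7 and 5 in vehicle and 60 and 90 in sorbitol (5.02 ± 0.37), RAD21 counts were 12 and 3 against 21 and 37 (3.02 ± 0.55), and YAP1 counts were 11 and 6 against 51 and 23 (4.04 ± 0.44, or 2.64 under the total count). H3K27ac there had 26 and 24 counts in vehicle and 9 and 13 in sorbitol (-1.65 ± 0.46). None of these groups overlapped in CPM.

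The downstream interval held next to nothing in vehicle. YAP1 had 1 count in each vehicle library and 38 and 19 in sorbitol, a ratio of summed counts on TMM sizes of 112, with a 95% exact binomial interval of 29.6 to 946 that covers counting error only, since PCR copies are not independent molecules. RAD21 had 2 counts in each vehicle library and 22 and 20 in sorbitol, a ratio of 21.4 (7.77 to 82.3). CTCF had 2 and 5 counts in vehicle and 78 and 83 in sorbitol, a ratio of 61.8 (29.3 to 156). The vehicle counts behind these ratios were low. Without CTCF vehicle replicate 1 the fitted log2 value of CTCF was 5.03, without replicate 2 it was 6.86, and with both it was 5.87. RAD21 moved in the same way, from 4.27 to 3.57 without vehicle replicate 1 and to 4.90 without replicate 2. H3K27ac was too low to test there, with 3 and 1 counts in vehicle and 11 and 3 in sorbitol.

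The upstream interval, which holds the CTCF match shown above, was the GADD45B interval with the most CTCF in vehicle. CTCF counts were 229 and 142 in vehicle and 123 and 140 in sorbitol. That is 34.6 ± 1.38 CPM against 66.2 ± 3.58 CPM and a log2 fold change of 0.93 ± 0.16, which turned to -0.05 under the total count. RAD21 overlapped between the groups, with 49 and 25 counts in vehicle and 18 and 21 in sorbitol (0.07 ± 0.41, or -0.51 under the total count). YAP1 counts were 19 and 20 in vehicle and 11 and 8 in sorbitol (0.92 ± 0.55, or -0.50 under the total count). H3K27ac was low and overlapping, at 13 and 19 counts in vehicle and 23 and 16 in sorbitol (-0.21 ± 0.46).

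In CPM, sorbitol lay above vehicle without overlap in 5 of 5 GADD45B intervals in CTCF and in YAP1 and in 4 of 5 in RAD21. Over all tested intervals 33.6%, 23.7% and 25.7% did so, and since the gene was chosen on these contrasts nothing is read from the counts. On total counts it was 4 of 5 in CTCF, 3 of 5 in YAP1 and 4 of 5 in RAD21. The upstream interval then lay below without overlap in RAD21 and YAP1, with ratios of summed counts of 0.694 and 0.711. The share over all intervals was not computed on total counts, so nothing is read from these counts either. H3K27ac lay below without overlap in 2 of the 4 intervals tested, against 30.6% of all tested intervals.

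GADD45A lies on chr1 from 67685201 to 67688334 on the plus strand (ENSG00000116717, 3134 bp) and has 1 interval, at chr1:67684907-67687001, over its transcript starts, UTR and coding sequence. It had more H3K27ac in vehicle than either relative, and in sorbitol it lost a part of that mark. Neither RAD21 nor YAP1 at GADD45A passed the test, and CTCF rose from 19.6 to 32.5 CPM, a direction that flips under the total count.

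**Figure D2:**
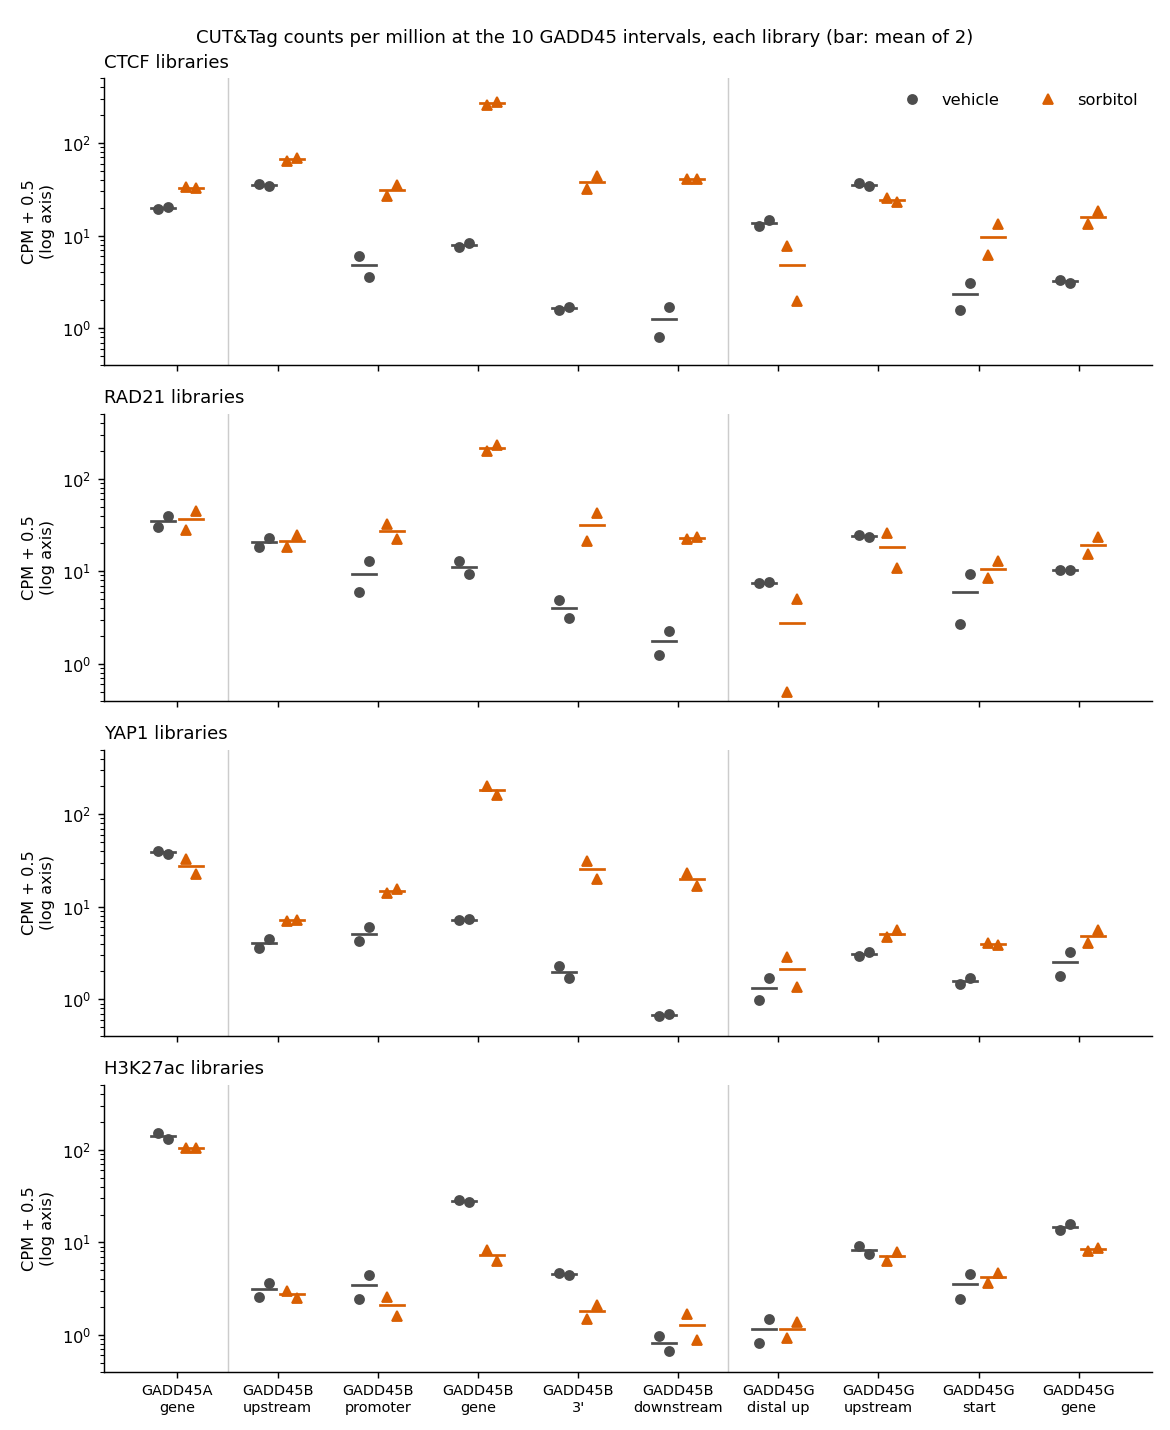
CPM + 0.5 of each library (points, log axis; bars are means of 2) in the 10 member intervals, with 1 panel for each target, vehicle as circles and sorbitol as triangles. The GADD45B gene interval goes from 7.39 to 269.7 CPM in CTCF and from 27.8 to 6.81 CPM in H3K27ac, whereas at GADD45A the RAD21 points of the groups overlap.

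H3K27ac at GADD45A had 938 and 791 counts in vehicle and 956 and 843 in sorbitol, or 140.2 ± 15.5 CPM and 104 ± 1.07 CPM. Both sorbitol libraries were below both vehicle libraries. The log2 fold change was -0.43 ± 0.08 (adjusted p = 3.2e-05, edgeR quasi-likelihood test), and in a single fit of all 16 libraries it was -0.28 and no longer called (adjusted p = 0.32).

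CTCF at GADD45A had 123 and 85 counts in vehicle and 64 and 65 in sorbitol, or 19.6 ± 0.719 CPM and 32.5 ± 0.862 CPM. The groups did not overlap in CPM, and the log2 fold change was 0.73 ± 0.22 (adjusted p = 0.011, edgeR quasi-likelihood test). This call was the least firm of the gene: the value turned to -0.25 under the total count, and it was lost without a count filter (adjusted p = 0.077), in a fit of all 16 libraries (0.072), under the total without dominant intervals (0.094), without CTCF vehicle replicate 1 (0.10) and without CTCF vehicle replicate 2 (0.053).

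RAD21 at GADD45A had 80 and 44 counts in vehicle and 28 and 39 in sorbitol, and the CPM overlapped (34.1 ± 6.90 against 35.9 ± 11.8). Its log2 fold change was 0.09 ± 0.35 (adjusted p = 0.90, edgeR quasi-likelihood test), which turned to -0.48 under the total count. YAP1 had 247 and 185 counts in vehicle and 54 and 26 in sorbitol, or 38.3 ± 2.50 CPM and 27.1 ± 7.19 CPM. Both sorbitol libraries lay lower, with a log2 fold change of -0.47 ± 0.23 that missed the threshold (adjusted p = 0.27, edgeR quasi-likelihood test). The YAP1 value passed it without a count filter (-0.88, adjusted p = 0.017), in a fit of all 16 libraries (-0.91, 0.0064), under the total count (-1.89, 0.00071) and without YAP1 sorbitol replicate 1 (-0.89, 0.033), each by the same edgeR test.

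GADD45G lies on chr9 from 89605012 to 89606555 on the plus strand (ENSG00000130222, 1544 bp), and a long non-coding RNA gene, ENSG00000285907, begins 325 bp upstream on the minus strand. Its 4 intervals are a distal upstream one at chr9:89598035-89598434 in an intron of that RNA, an upstream one at chr9:89603072-89604280 over an exon of it and with the CTCF match shown above, a start interval at chr9:89604865-89605235 and a gene interval at chr9:89605346-89606334. CTCF rose over the start and the gene and fell in both upstream intervals. H3K27ac fell over the gene. YAP1 was under 6 CPM at GADD45G in every library, and RAD21 passed the test nowhere.

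CTCF counts in the gene interval were 18 and 11 in vehicle and 25 and 37 in sorbitol, or 2.70 ± 0.136 CPM and 15.5 ± 3.69 CPM. Groups did not overlap and the log2 fold change was 2.51 ± 0.42 (adjusted p = 7.1e-05, edgeR quasi-likelihood test). In the start interval CTCF had 7 and 11 counts in vehicle and 11 and 26 in sorbitol, a log2 fold change of 2.39 ± 0.59 (adjusted p = 0.0031, same edgeR test). The start interval call was lost without CTCF sorbitol replicate 2 (1.68, adjusted p = 0.098) and without CTCF vehicle replicate 1 (1.79, 0.055), and the value was 3.04 without CTCF vehicle replicate 2.

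The upstream interval had CTCF counts of 235 and 143 in vehicle and 48 and 46 in sorbitol, or 35.1 ± 1.87 CPM and 23.7 ± 1.60 CPM. Its log2 fold change of -0.57 ± 0.21 was called by a narrow margin (adjusted p = 0.033, edgeR quasi-likelihood test). The call was lost in DESeq2 (adjusted p = 0.083), under scaling to the weakest 25% of tested intervals (0.26), and without CTCF vehicle replicate 1 (0.20), vehicle replicate 2 (0.097) or sorbitol replicate 2 (0.12). The distal upstream interval had 79 and 61 counts in vehicle and 14 and 3 in sorbitol, a log2 fold change of -1.62 ± 0.47 (adjusted p = 0.0085, edgeR quasi-likelihood test). The sorbitol libraries differed widely: without CTCF sorbitol replicate 2 the value was -0.86 (adjusted p = 0.12, same edgeR test), and without CTCF sorbitol replicate 1 it was -3.14.

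H3K27ac in the GADD45G gene interval had 81 and 93 counts in vehicle and 71 and 66 in sorbitol, or 14.1 ± 1.52 CPM and 7.93 ± 0.377 CPM. Both sorbitol libraries were lower, and the log2 fold change was -0.83 ± 0.22 (adjusted p = 0.0048, edgeR quasi-likelihood test). The call was lost in a fit of all 16 libraries (adjusted p = 0.28) and without H3K27ac vehicle replicate 2 (0.054). In the upstream interval H3K27ac had 53 and 43 counts in vehicle and 54 and 59 in sorbitol (-0.25 ± 0.27, adjusted p = 0.54 by edgeR), and in the start interval it had 12 and 25 against 29 and 34 (0.28 ± 0.41, adjusted p = 0.65).

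RAD21 counts in the GADD45G gene interval were 27 and 11 in vehicle and 15 and 20 in sorbitol, a log2 fold change of 0.92 ± 0.48 that was not called (adjusted p = 0.26, edgeR quasi-likelihood test). The start interval had 6 and 10 counts against 8 and 11, and the upstream interval 66 and 26 against 26 and 9. The distal interval, with 19 and 8 RAD21 counts in vehicle and 0 and 4 in sorbitol, was too low to test. YAP1 had at most 15 counts in any library in each GADD45G interval. Only the upstream one was tested, with 15 and 14 counts in vehicle and 7 and 6 in sorbitol (0.81 ± 0.65, adjusted p = 0.53 by edgeR, or -0.61 under the total count). The start interval had 6 YAP1 counts in each vehicle library and 6 and 4 in sorbitol, and the gene interval 8 and 14 against 6 and 6. Neither had counts enough to enter the test. The ratio of summed counts on TMM sizes was 3.27 at the start (95% exact binomial interval 1.27 to 8.26) and 2.14 over the gene (0.966 to 4.52). On total counts these ratios were 1.22 and 0.796.

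Over GADD45A and GADD45G together, 5 of 5 tested intervals were called in CTCF, 3 higher and 2 lower, where 40.2% of all tested intervals were called (19.5% higher and 20.7% lower). On the weakest 25% of intervals 3 were higher and 1 lower. There 41.4% of all tested intervals were called, 10367 higher and 5898 lower. Under the total count 2 were higher and 2 lower. There 59.0% of all tested intervals were called, 2109 higher and 21042 lower. In the main fit the split over all tested intervals was 7655 higher and 8115 lower. H3K27ac was called in 2 of 4 tested intervals, both lower, against 23.1% of all tested intervals (14.5% lower). In RAD21 the edgeR test called 0 of 4 (4.79% of all tested), and 0 had an unadjusted p under 0.05. In YAP1 it called 0 of 2 (6.83% of all tested), again with 0 at an unadjusted p under 0.05. DESeq2 called 0 in both of these targets as well, where it called 2.68% of all tested intervals in RAD21 and 5.6% in YAP1. CTCF calls were common everywhere in these libraries, so the share of CTCF calls in 5 intervals describes these genes and says little about how they differ from others. The response in CTCF was tested against that in RAD21 as an interaction in 5 intervals and differed in 0 of them (0.83% of all tested), and YAP1 against H3K27ac differed in 0 of 4 (6.27%). In the GADD45G gene interval the CTCF response exceeded the RAD21 response by 1.48 ± 0.65 (adjusted p = 0.34, edgeR quasi-likelihood test), an interval that does not settle whether they differ.

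Ratios taken inside a library do not depend on how libraries are scaled to each other. The log2 ratio of the GADD45B to the GADD45A gene interval, per kb, was -1.80 and -1.61 in the YAP1 vehicle libraries and 3.44 and 3.67 in the YAP1 sorbitol libraries. In CTCF it went from -0.62 ± 0.06 to 3.84 ± 0.13 and in RAD21 from -0.89 ± 0.64 to 3.41 ± 0.32. H3K27ac favoured GADD45A in every library, with -1.54 ± 0.11 in vehicle and -3.16 ± 0.31 in sorbitol. In vehicle, then, the GADD45A interval carried more of all 4 targets per kb than the GADD45B gene interval. In sorbitol the order of these intervals was turned around in CTCF, RAD21 and YAP1. The GADD45B promoter interval already stood above GADD45A in vehicle in CTCF (17.7 beside 9.35 CPM per kb) and RAD21 (36.5 beside 16.3). It was close in YAP1 (18.9 beside 18.3) and lower in H3K27ac (12.0 beside 66.9).

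The GADD45B gene interval held less CTCF per kb than its upstream interval in vehicle and more in sorbitol. The log2 ratio of gene to upstream interval was -2.96 and -2.71 in the vehicle libraries and 1.41 and 1.43 in the sorbitol libraries. GADD45G showed the same shift in part: its CTCF ratio was -3.42 and -3.41 in vehicle and -0.65 and -0.02 in sorbitol. The GADD45G groups did not overlap (exact two-sided permutation p = 0.33, the smallest that 2 against 2 libraries can give).

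**Figure D3:**
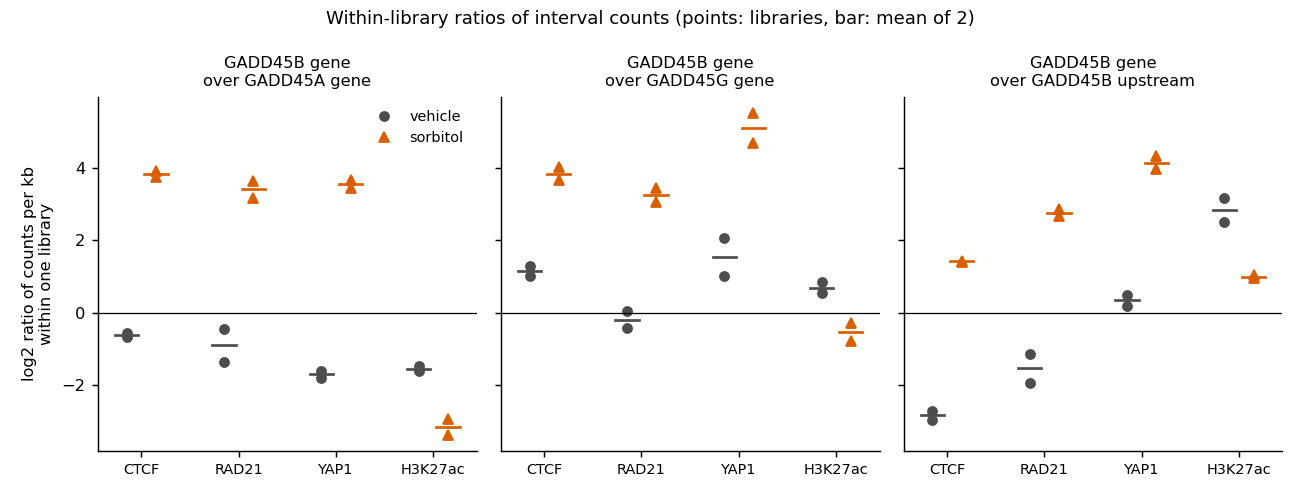
Log2 ratio of counts per kb within each library (points; bars are means of 2) for the GADD45B gene interval over the GADD45A gene, GADD45G gene and GADD45B upstream intervals, by target, with vehicle as circles and sorbitol as triangles. The GADD45B over GADD45A ratio in CTCF, RAD21 and YAP1 is below 0 in every vehicle library and above 3 in every sorbitol library, and in H3K27ac it is lower in sorbitol.

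Levels per kb of the 3 gene intervals in vehicle H3K27ac were 66.9 ± 7.38 CPM per kb at GADD45A, 23.0 ± 0.813 at GADD45B and 14.3 ± 1.54 at GADD45G, an order in which no neighbours overlapped. These stood at the 91.8, 47.6 and 34.4 percentiles of promoter intervals. In sorbitol the order was GADD45A at 49.6 ± 0.510, GADD45G at 8.02 ± 0.382 and GADD45B at 5.63 ± 1.13 CPM per kb, with GADD45B now last. For YAP1 in vehicle the levels were 18.3 ± 1.19 at GADD45A, 5.60 ± 0.153 at GADD45B and 2.05 ± 1.05 at GADD45G, and in sorbitol GADD45B led with 150.2 ± 23.6, followed by 12.9 ± 3.43 at GADD45A and 4.37 ± 1.07 at GADD45G. GC content was 66.1% in the GADD45A interval, 63.9% in the GADD45B gene interval and 69.2% in the GADD45G gene interval.

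Beyond the members, the 100 kb around each start held 10 further intervals at GADD45A, 16 at GADD45B and 6 at GADD45G. Those around GADD45B are described as they are, since some were singled out after their values were seen. CTCF in sorbitol lay above vehicle without overlap in 6 of 7 intervals upstream of GADD45B and in 7 of 9 downstream. Over all tested intervals 33.6% did so. These are unlike sets, since only 6 of the 7 and 4 of the 9 passed the count filter and were tested. On total counts, a comparison added after the data were seen, CTCF lay above in this way in 2 of 7 upstream and 6 of 9 downstream. Of the 6 upstream intervals above in CPM, 3 had a lower pooled level in sorbitol on total counts. The share over all intervals was not computed on total counts. Around GADD45A, CTCF lay above in CPM in 3 of 9 downstream intervals (0 on total counts) and 0 of 1 upstream. Those 3 had too few counts to be tested. CTCF lay below without overlap in 3 other downstream intervals (4 of the 9 on total counts). Among them, chr1:67760189-67760682 had 70 and 46 counts in vehicle and 9 and 10 in sorbitol (-1.18 ± 0.41). The share of all intervals that lay below in CTCF is not given here. The GADD45B interval at chr19:2494591-2495327, 16332 bp past the gene end and before the next protein-coding gene, GNG7, had CTCF counts of 9 and 7 in vehicle and 97 and 119 in sorbitol (5.15 ± 0.30). Its RAD21 value was 2.86 ± 0.63 and its YAP1 value 2.95 ± 0.52. At chr19:2489027-2489271, 10768 bp past the end, CTCF counts were 6 and 1 in vehicle and 43 and 59 in sorbitol (5.23 ± 0.48).

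**Figure D4:**
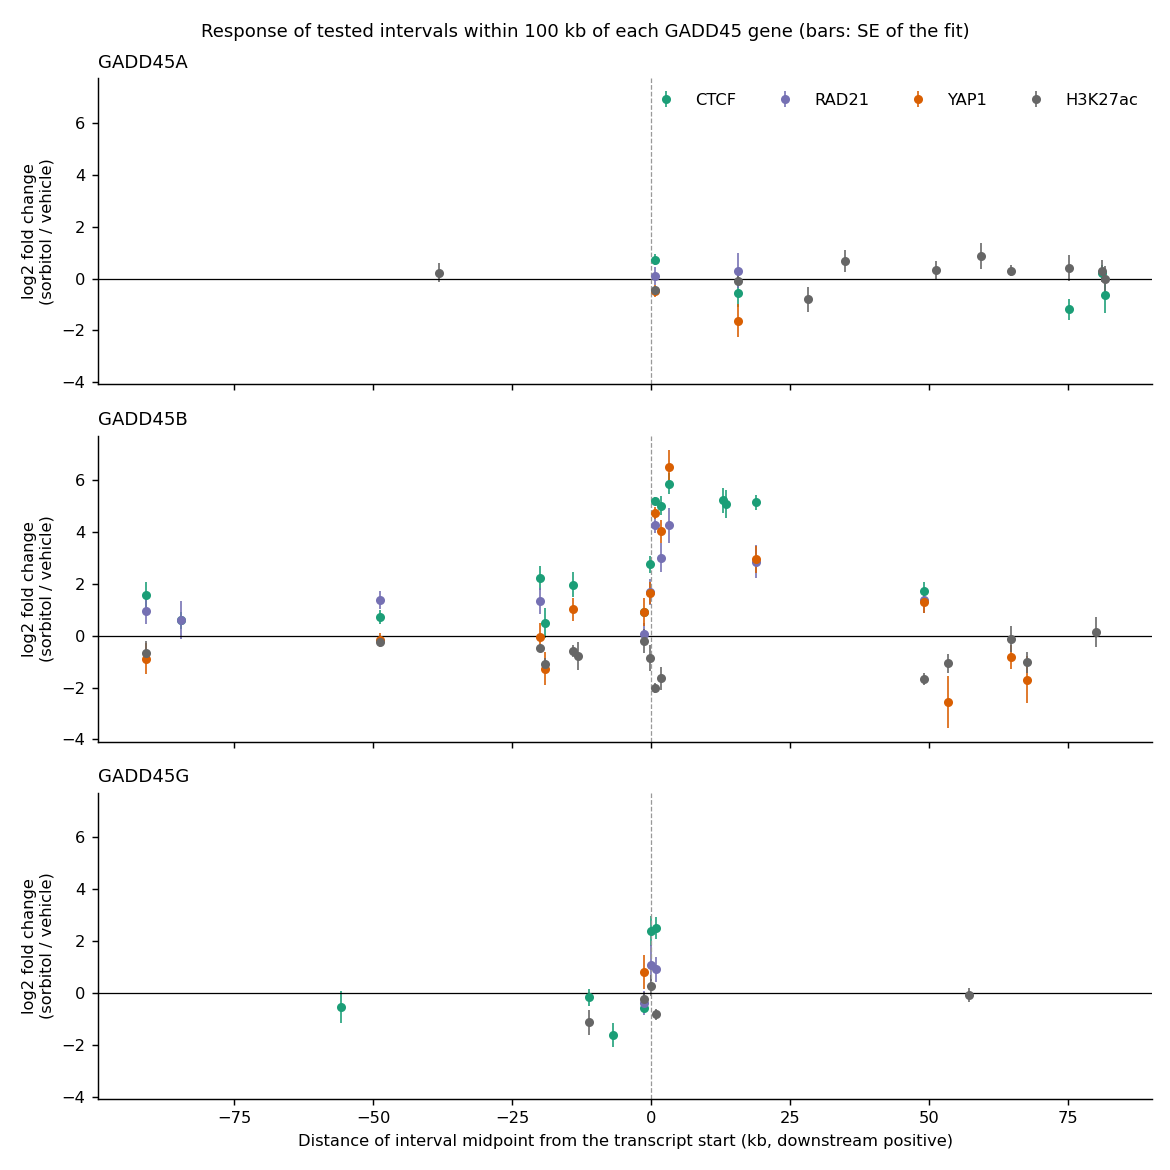
Log2 fold change (sorbitol over vehicle, bars are standard errors) of each tested interval within 100 kb against the distance of its midpoint from the transcript start in kb, with 1 panel for each gene and 1 colour for each target. At GADD45B the values of 4 or more lie from the gene interval to 16332 bp past the gene end, and the gene interval has the lowest H3K27ac value of its panel.

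The promoter intervals most like the GADD45B gene interval were found by Euclidean distance over the 4 log2 fold changes, among 10437 promoter intervals tested in all 4 targets. The nearest was at TUBB4B, a beta-tubulin gene, at a distance of 0.96, with 5.26 in CTCF, 4.90 in RAD21, 4.03 in YAP1 and -1.94 in H3K27ac. SNAI1, a zinc-finger repressor of epithelial genes, followed at 1.92, then MARCKSL1, which codes for an actin-regulating membrane protein, at 2.41. GYS1, the muscle form of glycogen synthase, stood at 2.74 and CD81, a tetraspanin gene that shares the interval with CD81-AS1, at 2.77. Several of these rest on few vehicle counts: RAD21 had 4 and 3 at TUBB4B and 12 and 1 at GYS1. GYS1 matched in CTCF, RAD21 and YAP1 alone, since its H3K27ac value was 0.02.

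Genes that act with the GADD45 proteins or regulate their expression were read from a list of 27 genes, all with at least 1 promoter interval and 49 such intervals together. In CTCF, 17 of 35 tested intervals were called higher and 4 lower (60.0% called, against 39.5% of all promoter intervals tested, of which 29.1% higher and 10.3% lower), with a median log2 fold change of 0.85 beside 0.42 over all of these. That balance rested on the scaling. Under the total count 8 were higher and 10 lower, with a median of -0.13 beside -0.56. All promoter intervals tested then had 1102 higher and 6413 lower of 17540. On the weakest 25% of intervals 22 were higher and 0 lower, beside 6889 and 1224 of all promoter intervals tested. In H3K27ac, 26 of 46 were called lower and 4 higher (65.2%, against 36.8% of all promoter intervals, 26.9% lower and 9.94% higher), with a median of -0.36 beside -0.13. Under the total count 21 were lower and 7 higher (-0.22 beside 0.02), where 4564 were lower and 3927 higher of 23198 promoter intervals. On the weakest 25% of intervals 31 were lower and 0 higher, beside 10597 and 692 of all promoter intervals tested. RAD21 was called higher in 2 of 30 and lower in 0 (6.67%, against 3.25% of all promoter intervals, 2.76% higher and 0.49% lower). YAP1 was called higher in 3 of 35 and lower in 0 (8.57%, against 4.3%, 2.91% higher and 1.39% lower). Under the total count the YAP1 direction turned, with 2 higher and 23 lower of 35. It did so over all promoter intervals tested as well, with 87 higher and 11244 lower of 15527 (73.0% called). The list was chosen with earlier results of these data known. It is therefore only described by these counts and was given no test of its own.

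The intervals named next were picked from that list by the size of their calls. Their p-values describe these libraries and are not independent support. EGR1, an immediate-early transcription factor and a regulator of GADD45 genes, rose in RAD21 (1.93 ± 0.28, adjusted p = 0.0016) and in YAP1 (2.32 ± 0.19, adjusted p = 7.8e-08, edgeR quasi-likelihood test). The same EGR1 interval was called higher in CTCF (1.94 ± 0.12) and lower in H3K27ac (-1.34 ± 0.08). ATF4, the transcription factor of the integrated stress response, rose in RAD21 by 2.26 ± 0.32 (adjusted p = 0.0013, edgeR). Its interval was also called higher in CTCF (1.85 ± 0.15) and YAP1 (0.84 ± 0.21) and lower in H3K27ac (-0.90 ± 0.08). ING1, a chromatin reader that brings GADD45A to DNA, rose in CTCF at 3 promoter intervals (3.10 ± 0.41, 2.28 ± 0.44 and 2.18 ± 0.48) and in YAP1 at 1 (3.07 ± 0.63, adjusted p = 0.0038, edgeR), and fell in H3K27ac at 5 (the lowest values were -2.74 ± 0.28 and -2.63 ± 0.43). Among the lower calls in CTCF, an interval of SMAD3, a TGF-beta signal transducer, had -2.26 ± 0.81, on 1 and 2 counts in sorbitol. Another SMAD3 promoter interval was called higher in CTCF (1.22 ± 0.32). MAPK14, the p38 alpha kinase, had -0.77 ± 0.23. H3K27ac rose by 1.18 ± 0.41 at a SMAD3 promoter interval with 2.1 CPM in vehicle and by 0.38 ± 0.10 at SMAD4, its partner. At the SMAD3 interval with the most H3K27ac (101 CPM in vehicle) the value was 0.02 ± 0.08. No other SMAD3 promoter interval was called in H3K27ac.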

How the data were processed

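The deposited table holds raw read counts over 74404 intervals in 16 libraries, as the authors made it without scaling between libraries. Per the submitters' processing notes, tools named include BWA 0.7.17, MACS2 2.2.6 and bedtools 2.31.1 and the build is hg38; how libraries were combined for peak calling is not given in the sources used here. All intervals lay within hg38 lengths.

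Each target was fitted on its own 4 libraries with edgeR 4.0.16 (R 4.3.3): TMM over tested intervals, filterByExpr at a minimum of 10 counts, robust quasi-likelihood test, Benjamini-Hochberg 0.05. Tests between targets used an interaction over 8 libraries. Scripts were tested on simulated data. There the edgeR test called 65.5% of 4-fold changes in CTCF, 49.5% in RAD21, 57.5% in YAP1 and 78.5% in H3K27ac. An interval that was not called may therefore still have changed. CPM uses TMM-scaled sizes, SE comes from the F statistic, and intervals of count ratios are exact binomial at 95%. Alternatives were DESeq2 1.42.0, other scalings and filters, a fit of all libraries, a replicate block and leaving out each library.

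Every member interval is named. Of other intervals, the list was named by at most 2 higher and 2 lower calls per target, and the intervals most like GADD45B as the 5 nearest. The members and lists were chosen with earlier results of these data known. The replicates of a group were not identical in any target.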

Additional observations from a re-analysis of the deposited data

Results flagged for a closer look

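At 2 GADD45B intervals the targets moved in opposite directions in every library. In the gene interval the log2 fold change was 5.20 in CTCF, 4.27 in RAD21 and 4.75 in YAP1 and -2.02 in H3K27ac. In the 3′ interval it was 5.02 in CTCF, 3.02 in RAD21 and 4.04 in YAP1 and -1.65 in H3K27ac. Each sorbitol library lay above both vehicle libraries in the former targets and below both in H3K27ac. The difference between targets was not tested at GADD45B, because the gene was chosen with these values known.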

How the results depend on the processing

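Of the 419 recomputed values of member intervals, 348 kept their direction and side of the threshold or moved by less than the spread. The GADD45B gene interval kept its direction in every alternative run. In CTCF it was 5.02 with at least 50 counts, 5.00 without a filter, 5.01 in one fit of 16 libraries, 4.21 under the total count, 4.92 without dominant intervals and 5.46 on the weakest 25% of intervals. In RAD21 it was 3.66 with at least 50 counts, 3.65 under the total count and 4.68 on the weakest 25%. In YAP1 it was 4.34 without a filter, 4.31 in one fit, 3.33 under the total count, 4.47 without dominant intervals and 4.48 to 4.83 when a library was left out. Calls at GADD45A and GADD45G in CTCF numbered 2 of 2 tested with at least 50 counts, where fewer intervals are tested. There 55.5% of all tested intervals were called. In H3K27ac they numbered 0 of 5 in one fit, where 6.43% of all tested intervals were called. In YAP1 they numbered 1 of 5 without a filter (3.36% of all tested intervals) and 1 of 5 in one fit (5.79%). Under the total count the YAP1 calls numbered 1 of 2 (65.0%). YAP1 differed from H3K27ac in 1 interval, GADD45A, under the total count. The list of related genes had 5 RAD21 calls on the weakest 25%, where 9.15% of all promoter intervals tested were called. It had 25 YAP1 calls under the total count, 23 of them lower, where 73.0% of all promoter intervals tested were called. Its CTCF calls went to 8 higher and 10 lower under the total count, beside 1102 and 6413 of 17540 promoter intervals.

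Directions turned under the total count at the GADD45A interval in CTCF (-0.25) and RAD21 (-0.48), at the GADD45B upstream interval in CTCF (-0.05), RAD21 (-0.51) and YAP1 (-0.50), and at the GADD45G upstream interval in YAP1 (-0.61). With a library left out, values ranged from -0.17 to 0.50 in RAD21 at GADD45A, -0.09 to 0.37 in RAD21 and -0.47 to 0.09 in H3K27ac at the GADD45B upstream interval, -1.10 to 0.23 in RAD21 at the GADD45G upstream interval and -0.17 to 0.91 in H3K27ac at the GADD45G start. On the weakest 25% the GADD45G upstream interval had 0.03 in RAD21. The cause was not tested.

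Same-numbered libraries did not deviate together (correlations of -0.009 in CTCF, -0.002 in RAD21, 0.009 in YAP1 and -0.006 in H3K27ac). This cannot show whether they shared a culture or a batch, which is not given in the sources used here. With the replicate number as a block, 5 of 5 tested intervals of GADD45A and GADD45G were called in CTCF (35.2% of all tested). Calls were 0 of 4 in RAD21 (2.77%), 0 of 2 in YAP1 (5.83%) and 2 of 4 in H3K27ac (23.4%). RAD21 had the lowest totals of the 4 targets, and 1 of its 4 GADD45G intervals was too low to test.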

Other observations

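GADD45B was chosen with its pattern known, so the counts of like intervals are a description and say nothing about how unusual it is. Of 10437 promoter intervals tested in all 4 targets, 42 had log2 fold changes of at least 2 in each of CTCF, RAD21 and YAP1. H3K27ac was lower in 23 of these 42 and lower by at least 1 in 18. The same shares over all 10437 were not computed, and the median H3K27ac value of all tested promoter intervals was -0.13. An interval in GNG7, at chr19:2524893-2525568, had 1.71 in CTCF, 1.38 in RAD21, 1.31 in YAP1 and -1.66 in H3K27ac, all smaller than at the GADD45B gene interval. On total counts its YAP1 direction turned: the ratio of summed counts was 0.938, beside 2.52 on TMM sizes. The RAD21 ratio was 1.6 beside 2.47, and on total counts the groups overlapped in both targets. CTCF (1.65) stayed above and H3K27ac (0.349) below without overlap. This GNG7 interval was chosen after its values were seen.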
